A study of Rattus norvegicus with 6 samples.

Results

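Single-bin genes are genes whose annotated exons form 1 counting bin. A bin is an exon, or a piece of an exon where transcripts of the same gene differ in their ends. Exon usage compares a bin with the other bins of its gene, so a gene with 1 bin has no value of exon usage and can only be followed by its expression. Identifiers joined by a plus sign, which stand for overlapping genes, were not taken. Of the 32447 genes counted in these rat cortical neurons, 9382 (28.9%) had exactly 1 bin, and 3387 of them had a count in at least 1 of the 6 cultures. The 3387 genes made up 15.5% of the 21872 genes with a count, but 1.74% of the 194233 bins with a count. A further 1333 genes with 2 or more bins had counts in only 1 of them, which leaves their usage without a reference bin as well.

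The study asked whether inhibition of ULK1, the kinase that starts autophagosome formation, changes exon usage and gene expression in neurons. Wild type cortical neurons from Wistar rat embryos of embryonic day 18 were seeded at 400000 per well and transduced on day in vitro (DIV) 1, and total RNA was taken on DIV 8. The control group, AAV.CTRL, received an adeno-associated virus for mCherry and an RNA fragment that is not translated, at 5000000 transducing units per well. The AAV.ULK1.DN group received a virus for mCherry and the C-terminal domain of ULK1, which acts as a dominant negative, at 9000000 transducing units per well. According to the study's methods, both vectors used the human synapsin promoter, which is active in neurons. Each group had 3 independent cultures, numbered 1 to 3, and no untransduced culture was analysed here. The study's methods state that these amounts gave equal transduction rates in its cultures. The amount of vector and the transgene differed together and cannot be told apart.

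Most animal genes are split by introns, and their transcripts carry marks of splicing that assist export and quality control. Transcripts of genes without introns lack these marks. Known kinds of such genes are the genes of the mitochondrial chromosome, the histone genes that are switched on during DNA replication, many G protein-coupled receptors, transcription factors such as Jun and some members of the Sox family, small noncoding RNAs, and copies of spliced transcripts inserted back into the genome. In young neurons, intronless genes are known among the early response factors and the factors that set cell identity. The deposited tables list genes by Ensembl identifier without names, and 0 identifiers were matched to a symbol in the RefSeq table used here. Which of these kinds a given gene belongs to, where it lies in the genome and how long it is were therefore not analysed here. Nor were Ulk1 itself and the markers of neurons, glia and dividing cells checked by name. Reads of copied genes can be shared between near-identical sequences, so single values of such genes are uncertain.

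Counts in exon bins summed to 34352754 to 39842066 per culture, with overlapping groups, and reads recorded outside the bins made up 46.3 to 48.1% of the sum of these counts and themselves. Between 2145 and 2234 single-bin genes were detected per culture. Each gene is given as a normalised count, that is, its count divided by the culture's relative effective library size (TMM normalisation). Values of single cultures stand in the order of the culture numbers 1, 2 and 3. Changes are given as the log2 ratio of AAV.ULK1.DN to AAV.CTRL with its standard error (SE), and p-values are those of edgeR's quasi-likelihood test after Benjamini-Hochberg adjustment over all genes tested, unless another test is named. In RNA from whole wells, fewer cells of a type and less RNA per cell cannot be told apart.

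Single-bin genes often had no count or few counts, which does not by itself show that they were silent. Of all 9382, 5995 had no count in any culture, and 36.1% had at least 1, against 49.1% of the 4466 genes with exactly 2 bins, the nearest genes outside the rule. At the other edge of the rule, 721 genes had exactly 1 count over the 6 cultures together, and 1610 had at most 6. The summed count of the 6 cultures had a median of 8 over the 3387 single-bin genes with a count and of 1814 over the genes with 2 or more bins and a count. A count in all 6 cultures was seen in 1436 single-bin genes and a count in exactly 1 culture in 806. A mean under 1 normalised count was found in 1554 of them, and 897 reached a mean of 10.

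Despite this, few genes held most of the counts. The most abundant gene, ENSRNOG00000034234, took 23.3% of all counts in single-bin genes, the 6 most abundant took 64.7%, and 107 genes held 90% of them. These are shares of counts and are not corrected for gene length. Only 97 single-bin genes had a mean of at least 1000 normalised counts and 13 a mean of at least 10000.

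**Figure D1:**
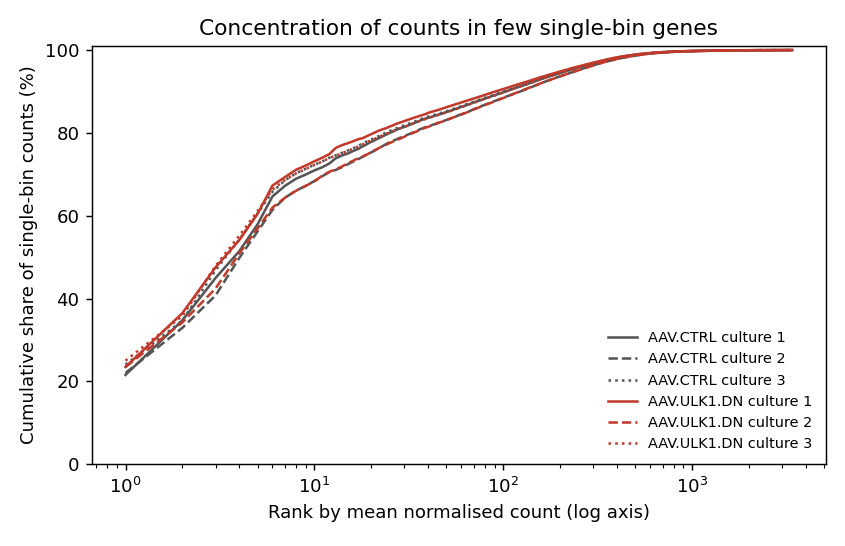
Cumulative share of the counts in single-bin genes, in percent, against the rank of the gene by mean normalised count (log axis), with 1 line per culture. The lines climb steeply over the 6 most abundant genes, which hold 64.7% of the counts, and those of the cultures numbered 2 run lowest between ranks 3 and 20.

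The share of the library in single-bin genes did not separate the groups. It was 3.64, 3.36 and 3.62% under AAV.CTRL, against 3.87, 3.28 and 3.62% under AAV.ULK1.DN. The means were 3.54% ± 0.152 (SD, n = 3) and 3.59% ± 0.294 (SD, n = 3), a difference of 0.050 percentage points (p = 0.9 by an exact permutation test, two-sided, whose smallest possible p is 0.1 at this size). The groups overlapped, and the cultures numbered 2 were lowest in each group. The differences within same-numbered cultures were 0.231, -0.0820 and 0.00126 percentage points. The direction of the group difference turned when AAV.CTRL culture 2 was left out (-0.0376 percentage points) or AAV.ULK1.DN culture 1 (-0.0888 percentage points).

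The 6 most abundant genes carried this pattern. They took 2.35, 2.07 and 2.38% of the bin counts under AAV.CTRL, against 2.60, 2.03 and 2.40% under AAV.ULK1.DN. The other 3381 genes took 1.22 to 1.30% in every culture. Group means were 1.27% ± 0.0322 for AAV.CTRL, against 1.24% ± 0.0231 for AAV.ULK1.DN (SD, n = 3 each). An exact permutation test of this difference gave p = 0.3 (two-sided). Reads that span several bins of a gene may be counted in each of them, which cannot happen in a gene with 1 bin. When every other gene was reduced to its best counted bin, the share of single-bin genes was 11.9 to 13.5%. The difference between the groups was then 0.281 percentage points (exact permutation test, two-sided, p = 0.5).

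**Figure D2:**
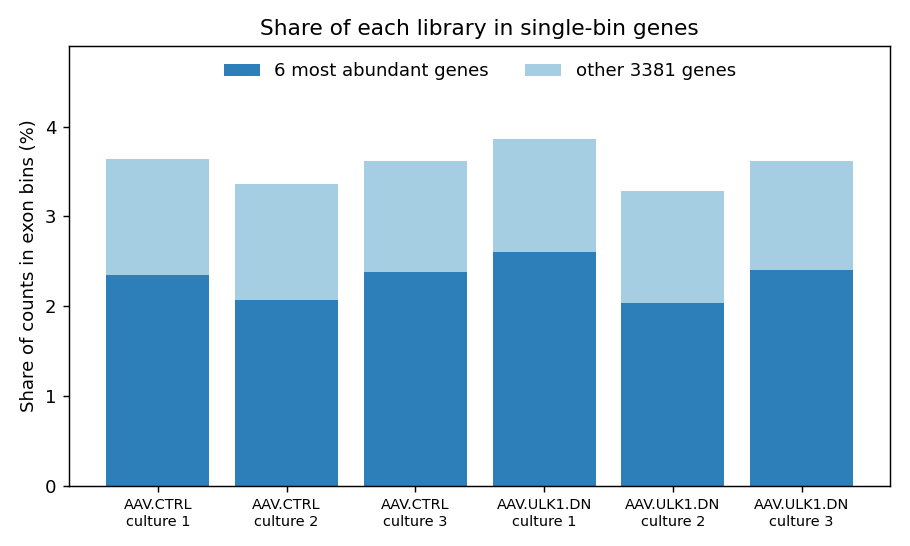
Share of the counts in exon bins that fell in single-bin genes, in percent, for each culture; the dark part of a bar is the 6 most abundant genes and the light part the other 3381. The light part stays between 1.22 and 1.30%, and the dark part runs from 2.03% in AAV.ULK1.DN culture 2 to 2.60% in AAV.ULK1.DN culture 1.

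Among the most abundant genes, several differed more between culture numbers than between vectors. ENSRNOG00000034234 had 296665, 278383 and 332788 normalised counts under AAV.CTRL, against 343156, 287825 and 345038 under AAV.ULK1.DN. Its change was 0.10 ± 0.0914 (SE; edgeR, adjusted p = 0.608), and the groups overlapped. ENSRNOG00000031033, the third by abundance, had 141042, 99079 and 168690 under AAV.CTRL, against 162017, 100512 and 167553 under AAV.ULK1.DN. In each group its culture 2 was the lowest and culture 3 the highest. ENSRNOG00000031766, the second, had 181226, 137508 and 146497 under AAV.CTRL, against 189971, 131827 and 148454 under AAV.ULK1.DN, so that culture 1 was the highest and culture 2 the lowest in each group. Over the 6 most abundant genes the log2 ratio lay between -0.05 and 0.10, with adjusted p-values of 0.608 to 0.979 (edgeR).

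Among the 13 most abundant genes the cultures lay furthest apart in ENSRNOG00000032882, which was singled out after its values were seen. It had 17616 normalised counts in AAV.CTRL culture 1 and 22060 in AAV.ULK1.DN culture 1. In the other cultures it had 6945 and 8212 under AAV.CTRL, against 7391 and 7679 under AAV.ULK1.DN. Both number 1 cultures thus stood above all others, the highest value was 3.18 times the lowest, and the change between the groups was 0.18 ± 0.482 (SE; edgeR, adjusted p = 0.896).

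The culture number was then tested as a term beside the vector, in an edgeR fit chosen after these values had been seen. Of the 913 single-bin genes tested, 25 differed between culture numbers with an adjusted p under 0.05 (2.74%), against 433 of all 14529 genes (2.98%), so the share over all single-bin genes was near that of the whole table. It was unevenly spread over abundance. With a mean of at least 10000 normalised counts, 5 of 13 single-bin genes differed between culture numbers (38.5%), against 21 of 691 genes with 2 or more bins (3.04%). From 3000 to 10000, the numbers were 3 of 23 (13%) against 87 of 2248 (3.87%). The difference between these shares was not tested. The 5 of 13 include the genes at ranks 2, 3 and 13, whose values were seen before this fit was chosen, so that share is no separate support. Of the 6 most abundant genes, 3 were among the 25. None of the 25 passed the adjusted p of the comparison of vectors in the fit without the culture number. In the fit with it, some passed for both terms. The gene at rank 68, for example, had adjusted p-values of 0.00389 for the culture number and 0.00221 for the vector (edgeR). The number 1 cultures had the highest mean in 10 of the 25 genes and the lowest in 11, so the direction was mixed.

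**Figure D3:**
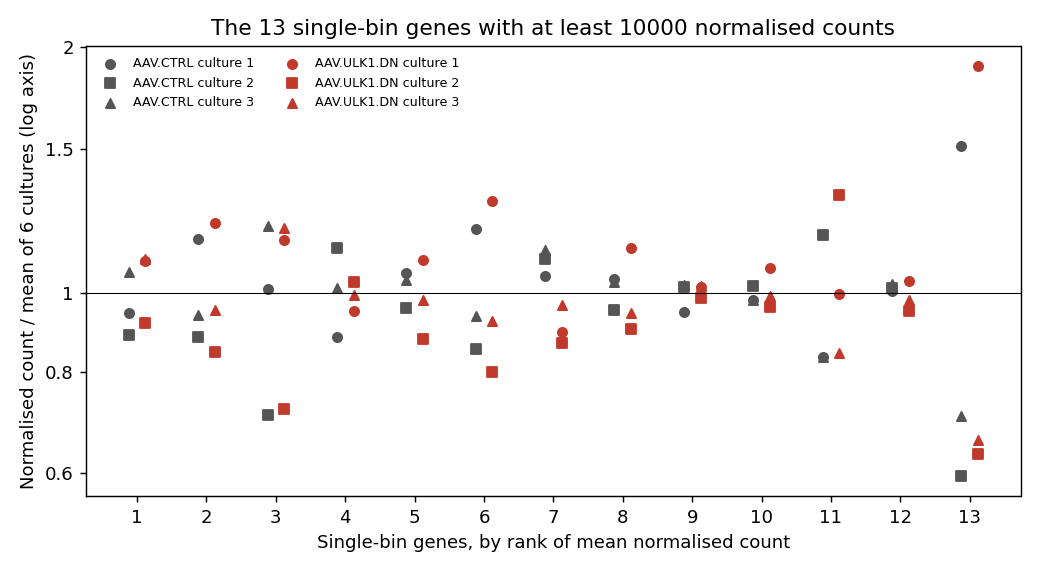
Normalised count of each culture divided by the mean of the 6 cultures (log axis), for the 13 single-bin genes with a mean of at least 10000 normalised counts, ordered by rank; grey stands for AAV.CTRL, red for AAV.ULK1.DN, and the marker shape for the culture number. Same shapes lie together at ranks 2, 3, 6, 11 and 13, the 5 genes that differed between culture numbers, and only the gene at rank 7 has groups that do not overlap. Over all genes tested, the groups did not overlap in 13.7% that were lower and 12.3% that were higher.

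Expression with AAV.ULK1.DN against AAV.CTRL could be tested in 913 of the 3387 single-bin genes (27.0%), because the filter on low counts removed 2474. These 913 are the better counted part and do not stand for all of them. The study's limits were used, an adjusted p under 0.05 together with a change beyond 1 on the log2 scale in either direction. Expression was lower in 7 of the 913 single-bin genes (0.767%), where the background over all 14529 genes tested was 1.94%. It was higher in 0, where the background was 0.179%. At an unadjusted p under 0.05 from the same edgeR test, 37 single-bin genes were higher (4.05%, background 8.45%) and 52 lower (5.7%, background 11.7%). DESeq2 gave 1 higher single-bin gene (0.105%, background 0.287%) and 9 lower ones (0.944%, background 2.87%). With the culture number as a block, which pairs cultures of the same number, 2 were higher and 11 lower (background 0.42% and 3.3%), and these 11 included all 7.

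The distribution of changes over the 913 single-bin genes was centred near 0. Their median log2 fold change was 0.01, as it was over all genes tested (0.01), with 471 above 0 and 442 below. An absolute log2 fold change under 0.5 was found in 799 of them (87.5%), against 87.0% of the genes with 2 or more bins, which were better counted. At similar counts the sizes were less alike. From 30 to 100 normalised counts the median absolute log2 fold change was 0.174, against 0.335 in genes with 2 or more bins. It was 0.122 against 0.198 from 100 to 300, and in the reverse order, 0.105 against 0.0906, from 1000 to 3000. These differences were not tested. A read may be counted in several bins of a gene with 2 or more, so similar counts need not mean similar numbers of reads. The groups did not overlap in 73 single-bin genes that were higher (8.0%, background 12.3%) and in 86 that were lower (9.42%, background 13.7%).

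The 7 lower genes were of low to moderate abundance, with means of 34.9 to 588 normalised counts. Their log2 fold changes ran from -4.42 to -1.28, with adjusted p-values of 0.0231 to 0.0398 from edgeR's quasi-likelihood test. Together they took 0.00577% of the bin counts under AAV.CTRL, against 0.00127% under AAV.ULK1.DN. In all 7, every culture with AAV.ULK1.DN lay below every culture with AAV.CTRL. The genes were selected on these same values, which favours such a separation, so it is no separate support.

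The largest change was in ENSRNOG00000019176. Its raw counts were 82, 95 and 19 under AAV.CTRL, against 2, 4 and 3 under AAV.ULK1.DN. The normalised counts averaged 66.9 ± 43.8 and 2.97 ± 0.914 (SD, n = 3 each), a change of -4.42 ± 0.733 (SE; edgeR, adjusted p = 0.0237). AAV.CTRL culture 3 lay far below the other control cultures, and the remaining level with AAV.ULK1.DN rests on 2 to 4 reads.

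ENSRNOG00000026941 followed. It had 568, 883 and 303 normalised counts under AAV.CTRL, against 47.4, 97.2 and 86.1 under AAV.ULK1.DN. The change was -2.92 ± 0.415 (SE; edgeR, adjusted p = 0.0231). Here too AAV.CTRL culture 3 was the lowest control and AAV.ULK1.DN culture 1 the lowest of all.

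The other 5 genes had smaller changes and a similar order of cultures. The next gene by change had 289, 307 and 128 normalised counts under AAV.CTRL, against 24.2, 59.9 and 49.8 under AAV.ULK1.DN. The fourth, the most abundant of the 7, had 917, 1365 and 563 under AAV.CTRL, against 162, 301 and 217 under AAV.ULK1.DN. The fifth went from a mean of 57.8 ± 19.0 to 14.2 ± 3.51 normalised counts (SD, n = 3 each). The sixth and the seventh had the smallest changes, with log2 fold changes of -1.30 and -1.28. In all 7 genes AAV.CTRL culture 3 was the lowest control culture, and in 6 of 7 AAV.CTRL culture 2 was the highest. AAV.ULK1.DN culture 1 was the lowest of its group in 6 of 7.

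**Figure D4:**
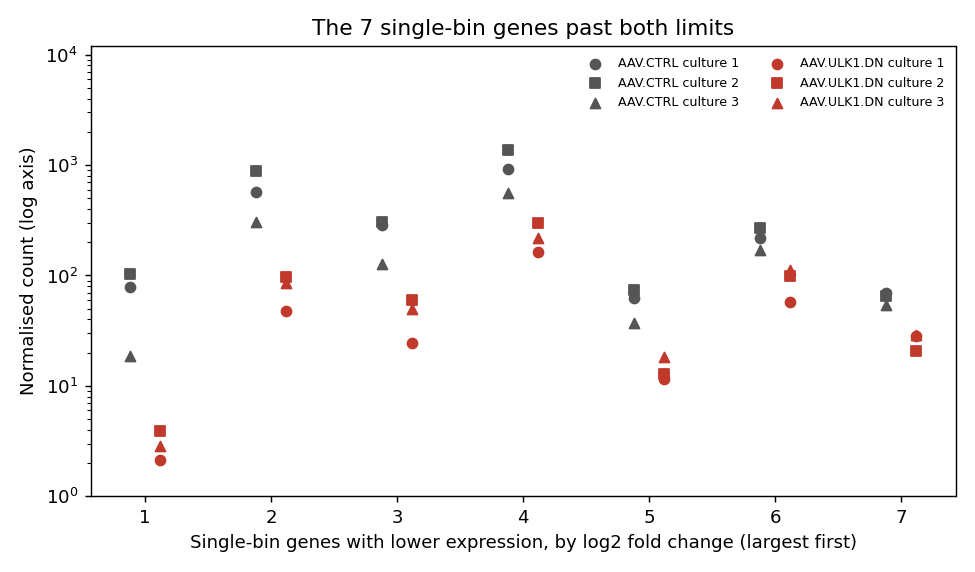
Normalised counts (log axis) of the 7 single-bin genes with lower expression, ordered by log2 fold change from -4.42 to -1.28; grey stands for AAV.CTRL, red for AAV.ULK1.DN, and the marker shape for the culture number. In each gene all red points lie below all grey points, and the grey triangle, AAV.CTRL culture 3, is the lowest grey point.

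The block added 4 lower genes, with means of 29.7 to 81.9 normalised counts under AAV.CTRL and log2 ratios of -2.49 to -1.21 in that fit. The gene with the steepest ratio had raw counts of 40, 26 and 23 under AAV.CTRL, against 0, 10 and 6 under AAV.ULK1.DN (edgeR with the block, adjusted p = 0.0432, and 0.0829 without it). The most abundant of the 4 had 87, 89 and 67 raw counts under AAV.CTRL, against 2, 39 and 30 under AAV.ULK1.DN (edgeR with the block, adjusted p = 0.0471, and 0.153 without it). In both, AAV.ULK1.DN culture 1 was far below the other cultures.

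The calls depended on single cultures. The number of lower single-bin genes was 0 without AAV.CTRL culture 1, without AAV.CTRL culture 2 or without AAV.ULK1.DN culture 1 (edgeR). In these 3 fits 0 of all genes tested were lower past both limits, so the loss covered the whole table. The number was 2 without AAV.ULK1.DN culture 2 (0.21%, background 0.475%) and 2 without AAV.ULK1.DN culture 3 (0.21%, background 0.942%). Without AAV.CTRL culture 3 it was 7, the same genes (0.727%, background 2.31%). The size of the change held in these 6 fits, between -4.87 and -3.97 for ENSRNOG00000019176 and between -3.23 and -2.49 for ENSRNOG00000026941.

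Smaller changes were found among better counted genes when the limit on the fold change was dropped. By the adjusted p alone, 11 single-bin genes were lower (1.2%, background 3.11%) and 3 were higher (0.329%, background 1.46%). Without AAV.CTRL culture 1, AAV.CTRL culture 2 or AAV.ULK1.DN culture 1, 0 single-bin genes were past it in either direction, against at most 2 of all genes in each direction. Without AAV.ULK1.DN culture 2 there were 2 lower and 0 higher (background 0.679% and 0.292%), without AAV.ULK1.DN culture 3 there were 6 and 2 (background 1.97% and 0.895%), and without AAV.CTRL culture 3 there were 10 and 1 (background 3.08% and 0.779%). With the block and all cultures, 31 were lower and 16 higher (background 8.6% and 5.02%). The 4 further genes that were lower had means of 1734 to 33935 normalised counts and log2 fold changes of -0.58 to -0.26. The most abundant of them, the seventh of all single-bin genes, had 35515, 37253 and 38260 normalised counts under AAV.CTRL, against 30390.5, 29439 and 32752 under AAV.ULK1.DN. The change was -0.26 ± 0.0579 (SE; edgeR, adjusted p = 0.0450). With 1 bin per gene its adjusted p was 0.0894, and it passed in 1 of the 6 fits with a culture left out (edgeR). Of the 13 genes with at least 10000 normalised counts, only this gene had groups that did not overlap. Its selection on the same values favours such a separation. Over all genes tested, the groups did not overlap in 13.7% that were lower and 12.3% that were higher. A larger difference was found in the gene at rank 18, singled out after its values were seen. It had 8777, 7940 and 9413 normalised counts under AAV.CTRL, against 4067, 5177 and 7438 under AAV.ULK1.DN, a log2 ratio of -0.65. Its groups did not overlap, and it passed with the block (edgeR, adjusted p = 0.0100) but not without it (edgeR, adjusted p = 0.10).

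The 3 higher genes rose by similar amounts. ENSRNOG00000049410 had 710, 618 and 699 normalised counts under AAV.CTRL, against 977, 1106 and 969 under AAV.ULK1.DN, with a change of 0.59 ± 0.0971 (SE; edgeR, adjusted p = 0.0233). Both named genes were chosen after their values were seen, since they lie under the fold limit. ENSRNOG00000046280 had 352, 355 and 368 under AAV.CTRL, against 539, 577 and 479 under AAV.ULK1.DN, with a change of 0.57 ± 0.107 (SE; edgeR, adjusted p = 0.0305). The last of them went from 235 ± 15.6 to 347 ± 29.1 normalised counts (SD, n = 3 each; log2 ratio 0.56, edgeR, adjusted p = 0.0469). In all 3 genes the groups did not overlap, which their selection on the same values favours, and the change was under the fold limit. With each culture left out in turn, the first passed the adjusted p in 2 of 6 fits, the second in 1 and the last in 0 (edgeR). The last named had the highest adjusted p inside the limit. The nearest gene outside it had a value of -0.58 on the log2 scale (edgeR, adjusted p = 0.0517). Past both limits with the block, 2 genes were higher, which are described here after their values were seen. The first of them had raw counts of 45, 59 and 65 under AAV.CTRL, against 74, 206 and 99 under AAV.ULK1.DN. The second had raw counts of 9, 3 and 3 against 18 in each AAV.ULK1.DN culture. Without the block their adjusted p-values were 0.139 and 0.0705 (edgeR).

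Some single-bin genes had counts in all cultures of 1 group and in none of the other, by a few reads each. Counts in all 3 AAV.CTRL cultures and 0 in all 3 AAV.ULK1.DN cultures were seen in 11 single-bin genes, 0.325% of the 3387, against 47 of the 21872 genes with a count (0.215%). The reverse was seen in 21 (0.62%), against 53 (0.242%). The highest count in any of these was 4, and 0 counts in a culture still allow a value of up to 3, so no fold is given.

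Genes with 2 or more bins at similar counts were compared as a description. Between 30 and 100 normalised counts, 3 of 222 single-bin genes were lower by the adjusted p (1.35%), against 85 of 1380 genes with 2 or more bins (6.16%). Between 100 and 300, the numbers were 2 of 180 (1.11%) against 104 of 1633 (6.37%). From 3000 to 10000 the order was the reverse, with 2 of 23 (8.70%) against 52 of 2248 (2.31%), although that single-bin share rests on 2 genes. The median log2 fold change from 30 to 100 was 0.02 in single-bin genes and -0.11 in the others. None of these differences between kinds of genes was tested.

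The estimated spread between cultures fell with abundance in both kinds of genes up to 10000 normalised counts. It is given as the biological coefficient of variation, edgeR's estimate of the spread beyond counting error. edgeR draws each gene's value towards a trend with abundance shared by all genes. Both kinds are thereby in part made alike at similar counts. The counting error is that of summed bin counts, in which a read of a gene with several bins may occur more than once. From 30 to 100 normalised counts its median was 20.7% in single-bin genes and 24.3% in genes with 2 or more bins. It was 11.7 and 12% from 300 to 1000. From 1000 on the order turned, with 9.12 and 8.48% from 1000 to 3000, 7.43 and 6.62% from 3000 to 10000, and 8.33 and 6.29% at 10000 and over.

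**Figure D5:**
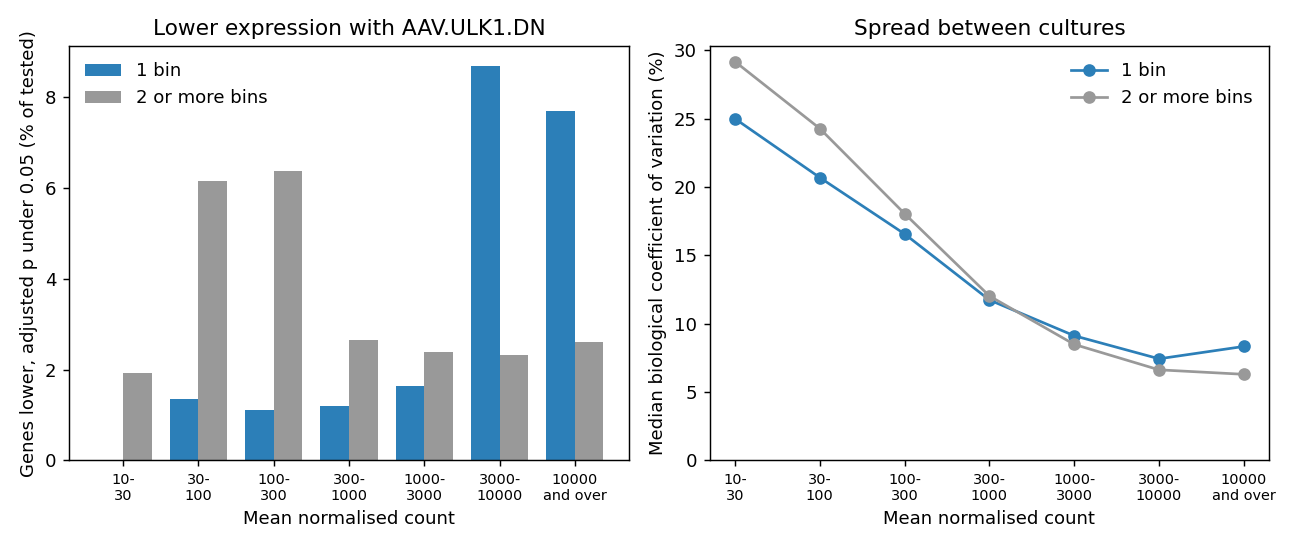
Left, percent of tested genes with lower expression by the adjusted p, and right, median biological coefficient of variation in percent, by class of mean normalised count, for genes with 1 bin (blue) and with 2 or more bins (grey). The grey bars are the taller in each class below 3000 normalised counts that holds calls, the blue bars are the taller from 3000 on but rest on 2 of 23 and 1 of 13 genes, and both curves fall with abundance up to 10000.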

How the data were processed

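Per the labels and the study's methods, the authors prepared TruSeq v2 libraries, aligned paired-end reads to rn6 with STAR (2.5.2a in the submitters' processing notes) and deposited raw read counts for bins made from Ensembl exons, for DEXSeq; the strand setting is not given in the sources used here. Summary rows for reads outside bins or on several genes were left out. Bins were summed per gene, and all genes were tested in R 4.3.3 by edgeR 4.0.16 (quasi-likelihood) after TMM normalization and filterByExpr, with a term for the vector and Benjamini-Hochberg adjustment over the 14529 genes tested. The standard error is the log2 fold change over the root of F. Scripts were tested on simulated data. The members and lists were chosen with earlier results of these data known. The rule for named genes took the most abundant genes and those with the largest change that passed and moved alike in all 3 pairs; without symbols, at most 2 identifiers that rose and 2 that fell are printed. The 15 gene lists, cell type markers included, could not be applied.

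The culture numbers come from the labels. Across 913 single-bin genes, which are not independent replicates, deviations from the group means correlated at 0.411 to 0.560 between same-numbered cultures. The values were -0.408 to -0.0864 between others. Deviations cancel within a group, so these negative values follow in part from the positive ones and are not separate support. The numbers were taken to pair the cultures, on the same data as the fits with the block. Precision is limited by 3 cultures per group. Alternatives were DESeq2 1.42.0, its size factors, no filter, 1 bin per gene, no fold limit, unions left out, each culture left out, and the block; leaving out the 6 most abundant single-bin genes was added after seeing the data.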

Additional observations from a re-analysis of the deposited data

How the results depend on the processing

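The 7 lower single-bin genes were all kept with DESeq2's size factors, with 1 bin per gene, without the filter, with DESeq2 and without the 6 most abundant single-bin genes. A replicate block gave 2 higher and 11 lower genes, the adjusted p alone 3 higher and 11 lower, and DESeq2 1 higher and 9 lower. Leaving out each culture gave 0 to 7 lower and 0 higher single-bin genes, where all genes tested gave 0 to 341 lower (282 with all cultures) and 1 to 26 higher (26 with all cultures). These fits have fewer samples; no other cause was tested. Of these 6 fits, ENSRNOG00000019176 passed in 1 and ENSRNOG00000026941 in 3, with the change kept in size. The difference in the share of single-bin genes, 0.050 percentage points (AAV.ULK1.DN minus AAV.CTRL), turned to -0.0286 without the 6 most abundant genes, ran from -0.0888 to 0.204 with each culture left out, and was 0.281 with 1 bin per gene. Paired by culture number it was 0.050 (exact sign-flip permutation test, p = 0.75, where the smallest possible is 0.25). The share outside the mitochondrial genes and the fit without them were not run, since no identifier could be matched to a symbol.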
